A study of Mus musculus with 18 samples.

Results

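The SR proteins are splicing factors with an RNA-recognition motif and a domain rich in serine and arginine, and 9 of their genes were followed here: Srsf1, Srsf2, Srsf3, Srsf4, Srsf5, Srsf6, Srsf7, Srsf10 and Srsf11. They were taken by gene name from a table of estimated counts with 47643 genes and 115125 transcripts, of which these 9 genes hold 68 transcripts. By the biotype written in each transcript's name, 24 of the 68 are protein_coding, 12 are nonsense_mediated_decay, 22 are retained_intron and 10 are processed_transcript. The RNA was total RNA of 5G6GR mouse embryonic stem (ES) cells, which carry an inducible fusion of Gata6, grown without feeder cells in serum and leukemia inhibitory factor with puromycin and blasticidin. In 15 libraries a 10 pg dilution of it went into RT-RamDA, a method that makes many cDNA strands from each RNA molecule during reverse transcription, followed by 17 cycles of PCR. These 5 groups of 3 libraries differed in the reverse transcription primers, and the numbers in the position codes of the sample titles differ by group as well, so that position and primer cannot be told apart. The primers were not-so-random primers mixed with oligo(dT) (NSRdT), random hexamers mixed with oligo(dT) (N6dT), not-so-random primers alone (NSR), which are designed to avoid ribosomal RNA (rRNA), random hexamers alone (N6), and oligo(dT) alone (dT), which anneals to poly(A) tails. The other 3 libraries (bulk) were made from 200 ng of total RNA by another kit with removal of rRNA and 7 cycles of PCR. In each comparison with bulk the input, the kit, the rRNA removal and the PCR therefore cannot be told apart. A difference in the RNA itself, such as that of bulk replicate 2 in the marker genes below, cannot be told apart from them either. Separate cultures are not stated for the 3 libraries of a group, so the p-values measure only the spread between these libraries, which may be technical. The labels describe 1 way of culture for the line, and the libraries hold RNA of many cells, in which fewer cells of a type and less RNA per cell cannot be told apart.

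SR proteins bind exonic enhancer sequences in pre-mRNA and help the U1 particle and U2AF find the ends of introns, and several also escort mRNA out of the nucleus. The family is known for controlling its own amount: an SR gene can splice in an exon with an early stop codon (a poison exon) or keep an intron, and the resulting RNA is degraded by nonsense-mediated decay (NMD) or stays in the nucleus. A stop codon lying well upstream of the last exon junction is the feature that NMD recognises. A single SR gene thus yields coding RNA, NMD targets and intron-retaining RNA side by side, which is why the transcripts are described here by class as well as by gene.

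3 exons that carry the early stop of an NMD transcript whose counts are described further on are shown from the first base of the exon to the stop codon, which is in capitals. The sequences are from GENCODE vM21 transcripts on mouse build GRCm38, 5′ to 3′ along the RNA. The Srsf3 exon is at chr17:29039454-29039909 on the plus strand, the Srsf6 exon at chr2:162932815-162933082 on the plus strand and the Srsf11 exon at chr3:158024123-158024231 on the minus strand. They are shown because the share of RNA with such exons is the measure by which the family is known to set its own amount.
Srsf3-002: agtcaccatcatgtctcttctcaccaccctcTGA
Srsf6-002: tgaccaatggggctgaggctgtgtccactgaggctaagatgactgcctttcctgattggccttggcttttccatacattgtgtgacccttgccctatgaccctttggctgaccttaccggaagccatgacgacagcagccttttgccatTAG
Srsf11-008: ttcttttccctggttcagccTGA
The Srsf3 exon is 456 nucleotides long and its stop codon lies 548 nucleotides upstream of the last exon junction, whereas the stop codon of the coding transcript Srsf3-001 lies downstream of its last junction. The Srsf6 exon is 268 nucleotides long and its stop lies 534 nucleotides upstream of the last junction, and Srsf6-003, which is annotated as protein_coding, ends at the same stop codon. The Srsf11 exon is 109 nucleotides long, its stop lies 456 nucleotides upstream of the last junction in Srsf11-008, and no protein_coding transcript of Srsf11 holds the exon. All 68 transcripts of the table were found in vM21, 63 in the same version and 5 in another, Srsf3-001, Srsf3-002, Srsf3-003, Srsf3-005 and Srsf7-201. The table gives Srsf3-002 a length of 1919 nucleotides and vM21 gives 2594, so the exon is shown as vM21 has it.

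Library totals ran from 5362297 to 10326614 estimated counts, spike-in sequences included. The 9 genes together took, in CPM (counts scaled to a fixed total) of each library's own sum, 1837 to 1957 in NSRdT, 1444 to 1541 in N6dT, 1232 to 1352 in NSR, 939 to 1009.9 in N6, 3449.5 to 3557 in dT and 2780.4 to 3008 in bulk, while loci annotated as rRNA took a mean of 22.4%, 27.7%, 28.1%, 30.9%, 6.23% and 0.0214% in the same groups. Levels are therefore given as CPM scaled by edgeR's TMM factors over all 18 libraries. Of 12 ES cell markers at least 11 had counts in every group, and their summed CPM was 3515 to 3841 in dT and 1913 to 2947 in the other groups. The 14 primitive endoderm markers summed to 6287 CPM in bulk replicate 2, against 666 and 574 in the other bulk libraries and 349 to 839 in RT-RamDA libraries, so results against bulk are also given without that library. Foxa2 and Hnf4a were at 0 in N6, Hnf4a and Sox17 in NSR, Foxa2 and Sox17 in dT, and Hnf4a in N6dT. The part of these markers in any result was not tested. Markers of fibroblasts, trophectoderm, mesendoderm and neuroectoderm summed to 99.6 to 233, 12.5 to 57.2, 0 to 10.5 and 29.4 to 63.04 CPM over the 18 libraries.

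Per transcript length, Srsf3 was the highest of the 9 genes in 5 of the 6 groups and Srsf4 the lowest in all 6. Srsf3, which encodes the smallest SR protein, averaged 323 ± 34.3 TPM (estimated counts per transcript length, scaled to a fixed total per library) in NSRdT, 184 ± 21.9 in N6dT, 178 ± 10.9 in NSR, 80.9 ± 9.04 in N6, 703 ± 68.1 in dT and 323 ± 27.2 in bulk (SD, n = 3 each). In N6 Srsf2, which encodes the nuclear speckle protein SC35, was the highest at 105 ± 3.88 TPM. With the length of each gene's most abundant transcript alone, Srsf5 was highest in bulk at 340 TPM, beside 316 for Srsf3 and 313 for Srsf2. Srsf3 in dT then had 464 TPM, still the highest there. Srsf4 averaged 24.6 ± 12.5 TPM in dT and 37.3 ± 1.99 in bulk. The order from high to low in bulk was Srsf3, Srsf2, Srsf5, Srsf1, Srsf6, Srsf10, Srsf7, Srsf11, Srsf4, and in dT it was Srsf3, Srsf2, Srsf5, Srsf7, Srsf6, Srsf11, Srsf1, Srsf10, Srsf4. Between neighbours in these orders the library ranges overlapped for 5 of 8 pairs in bulk and 3 of 8 in dT, 4 in NSRdT, 6 in N6dT, 5 in NSR and 4 in N6. In bulk the unresolved neighbours were Srsf3, Srsf2 and Srsf5 at the top, and Srsf6, Srsf10, Srsf7 and Srsf11 in the middle. Srsf7, whose protein carries a zinc knuckle beside its RNA-recognition motif, ranked 4 in dT at 241 ± 31.01 TPM and 8 in N6 at 33.4 ± 0.653 TPM. Since TPM share a fixed total with rRNA, these values order genes within a group and are not compared between groups.

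**Figure D1:**
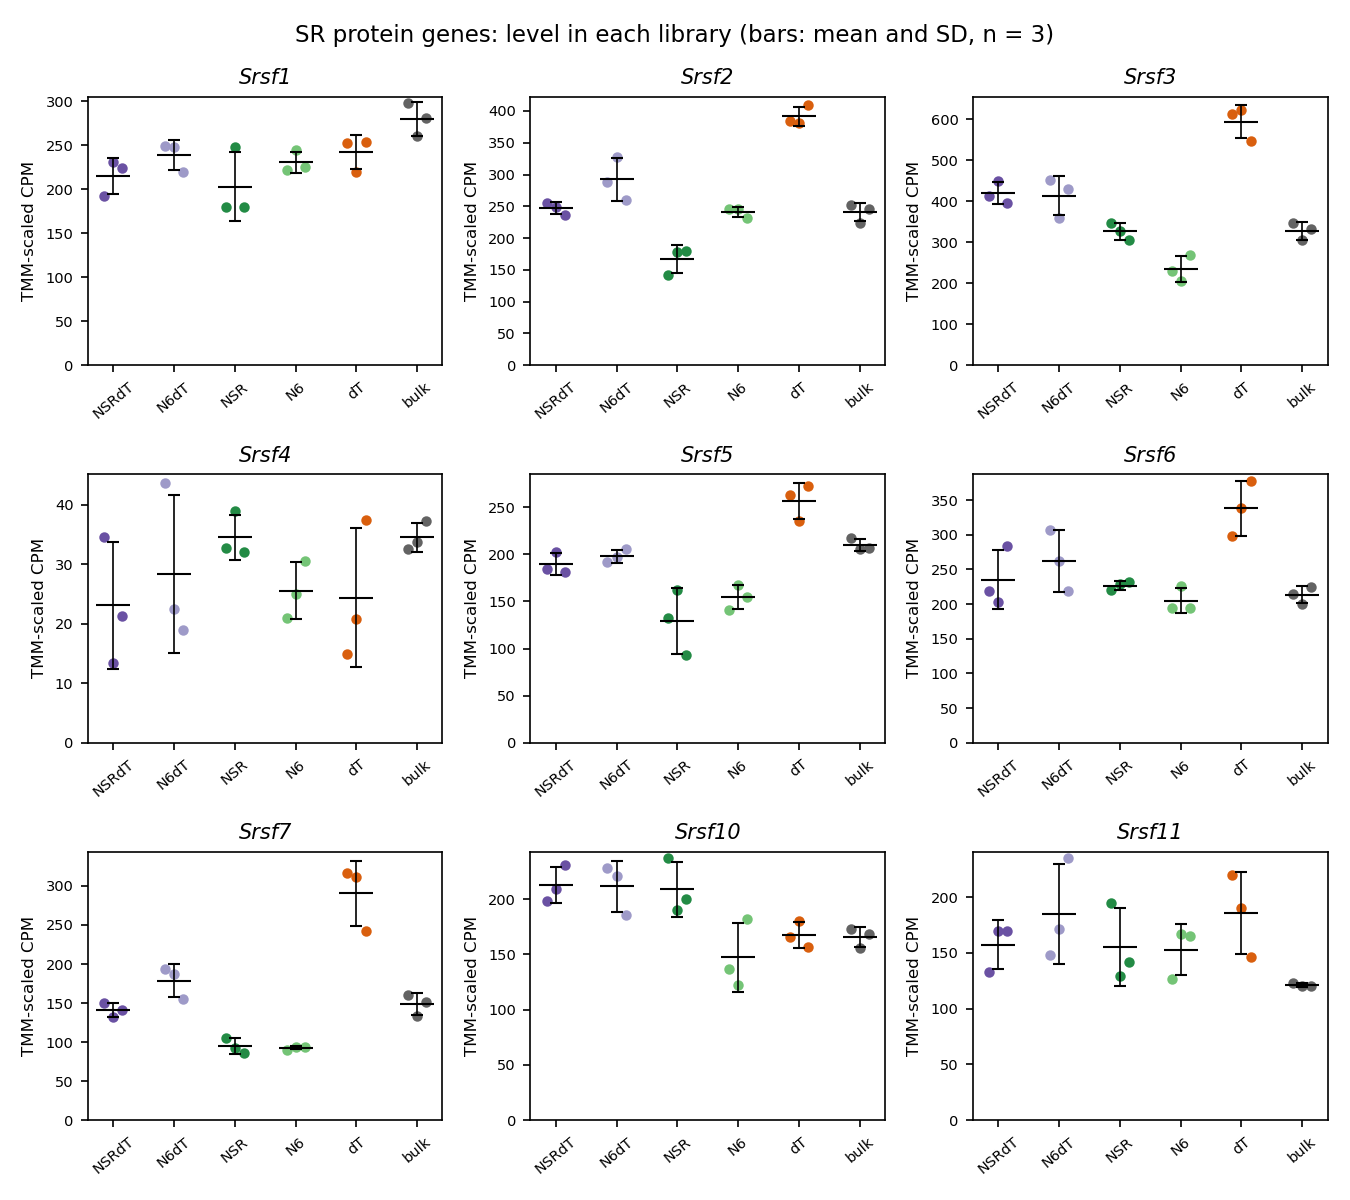
Scaled CPM (y axis, from 0) of the 9 SR protein genes in each of 18 libraries (points) by group (x axis), with the mean and SD of 3 libraries as bars. Srsf7 sits between 243 and 316 CPM in dT, above every library of the other groups, while Srsf4, the lowest gene, lies between 13.4 and 43.6 CPM over the 18 libraries.

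The first question is how the SR genes fare when the first strand starts anywhere in the RNA and not at the poly(A) tail. Between random primers alone (N6 and NSR, 6 libraries) and dT alone (3 libraries), 5 of the 9 genes were called lower and none higher (edgeR quasi-likelihood F test, adjusted p under 0.05), while 7.54% of the 15682 genes tested were called lower and 9.53% higher. The median log2 fold change of the 9 was -0.64, beside 0.12 over all genes tested. Scaling by library totals alone, in place of TMM factors, gave 820 higher and 4328 lower over all genes, beside 1495 higher and 1183 lower with TMM, moved the median of all genes to -0.80 and called 8 of the 9 SR genes lower. Srsf7 differed most, with 106, 92.3 and 86.05 CPM in NSR and 90.3, 94.2 and 93.6 in N6, against 316, 312 and 243 in dT. No random-primed library came near the dT libraries, and the log2 fold change was -1.63 ± 0.13 (SE), adjusted p = 1.12e-07. Srsf3 had 347, 328 and 305 CPM in NSR and 231, 205 and 268 in N6, against 612, 621 and 548 in dT, and fell by 1.10 ± 0.11 on the log2 scale (adjusted p = 1.44e-06). The groups did not overlap. Srsf2 had 141, 179 and 179.8 CPM in NSR and 246, 245 and 232 in N6, against 384, 381 and 409 in dT, a log2 fold change of -0.96 ± 0.11 (adjusted p = 7.86e-06). Here the NSR libraries were lower than the N6 libraries and both were below every dT library.

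Srsf5 and Srsf6 encode SR proteins with a pair of RNA-recognition motifs, as does Srsf4. Srsf5 had 132, 162 and 92.7 CPM in NSR and 141, 167 and 155 in N6, against 263, 236 and 272 in dT, a log2 fold change of -0.86 ± 0.15 (adjusted p = 0.000584). Srsf6 had 219.8, 228 and 232 CPM in NSR and 195, 226 and 195 in N6, against 298, 339 and 378 in dT, a log2 fold change of -0.64 ± 0.13 (adjusted p = 0.00304). For both genes the highest random-primed library was below the lowest dT library. The third of these genes, Srsf4, was not called: it had 32.7, 38.9 and 32.1 CPM in NSR and 21.1, 25.02 and 30.6 in N6, against 14.9, 20.8 and 37.5 in dT, with a log2 fold change of 0.29 ± 0.39 (adjusted p = 0.670). Its dT libraries differed from each other by more than the groups did. Srsf1, the founding member of the family, was not called either with 179.9, 248 and 180.0 CPM in NSR and 222, 244 and 225 in N6, against 252, 219.9 and 254 in dT (log2 fold change -0.16 ± 0.13, adjusted p = 0.439). Srsf10, whose protein represses splicing when dephosphorylated, had 237, 189.9 and 199.8 CPM in NSR and 137, 122 and 182 in N6, against 165, 180.1 and 156 in dT (0.07 ± 0.14, adjusted p = 0.788, and -0.862 with library totals alone). Srsf11, the gene of a protein that joins the SR family by its serine-arginine domain and associates with U2AF, had 195, 129 and 142 CPM in NSR and 126, 167 and 165 in N6, against 219.7, 191 and 147 in dT (-0.26 ± 0.19, adjusted p = 0.380). In all 4 genes not called, libraries of the groups overlapped. The main transcripts of the 5 called genes were 1527 (Srsf5) to 3527 (Srsf6) nucleotides long and those of the 4 others 2257 (Srsf4) to 3058 (Srsf10). Over all tested genes with a protein_coding transcript the median log2 fold change was -0.53 for main transcripts of 1400 to under 2000 nucleotides, -0.21 from 2000 to under 3000 and 0.24 from 3000 to under 6000, and the part of length in the members' values was not tested. The 5 calls held under all 20 alternatives that gave them a value.

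The next comparison sets the primer mixtures with dT against the same primers without it, so it shares the N6 and NSR libraries with the one before. With N6 and NSR pooled, 3 of 9 genes were higher with dT added than without and none was lower, beside 1.8% of all genes tested higher and 0.376% lower. Library totals alone gave 513 higher and 30 lower over all genes, beside 282 higher and 59 lower. Srsf7 had 150.1, 132 and 141 CPM in NSRdT and 194, 187 and 155 in N6dT, and the log2 fold change against the primers without dT was 0.77 ± 0.11 (adjusted p = 0.000405). All 6 libraries with dT added were above all 6 without it. Srsf3 had 413, 450.0 and 396 CPM in NSRdT and 451, 359.7 and 429 in N6dT, a log2 fold change of 0.59 ± 0.09 (adjusted p = 0.000688), also with no overlap. Srsf2 had 255, 249 and 236 CPM in NSRdT and 289, 327 and 261 in N6dT and rose by 0.43 ± 0.09 (adjusted p = 0.0156), but here the 2 sides overlapped. That call was lost without N6 replicate 3 (adjusted p = 0.0550), without N6dT replicate 2 (0.0662), without NSRdT replicate 1 (0.0557) or with no filter on low counts (0.0805). Srsf5 averaged 194 ± 9.80 CPM with dT added and 142 ± 27.3 without, with no overlap, but its adjusted p was 0.0716.

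Within hexamers, N6dT was higher than N6 for Srsf3 (0.83 ± 0.13, adjusted p = 0.00175) and Srsf7 (0.95 ± 0.16, adjusted p = 0.00274), 2 of 9 genes beside 0.982% of all genes. Both held under all 20 alternatives. Library totals alone gave 230 higher and 8 lower over all genes, beside 154 higher and 24 lower. Within not-so-random primers, NSRdT was higher than NSR for Srsf2 alone (0.57 ± 0.13, adjusted p = 0.0401), 1 of 9 beside 1.04%, and this call was lost under 18 of 20 alternatives, among them the omission of any 1 RT-RamDA library. Library totals alone gave 328 higher and 15 lower over all genes, beside 163 higher and 30 lower. Srsf3 and Srsf7 had log2 fold changes of 0.36 ± 0.13 and 0.58 ± 0.15 there, with adjusted p = 0.366 and 0.115. The change with dT did not differ detectably between NSR and N6 for any of the 9 genes, beside 7 called higher and 3 lower of all 15682 genes. In the test of that difference the largest values were -0.73 ± 0.63 for Srsf4, -0.51 ± 0.23 for Srsf10 and -0.46 ± 0.18 for Srsf3, and the adjusted p was 1.00 for each gene. An unadjusted p under 0.05 was found for 2 of 9 genes, beside 688 of all 15682 genes. Between NSR and N6 primers, with and without dT together, edgeR called 0 of 9 genes, beside 0.172% of all genes (library totals alone gave 526 higher and 14 lower, beside 7 higher and 20 lower). Of the 9, 3 had an unadjusted p under 0.05, beside 848 of all 15682 genes. DESeq2 called 1, Srsf2, which was lower with NSR, beside 36 higher and 75 lower of all 14962 genes. Srsf2 averaged 207 ± 46.4 CPM with NSR primers and 267 ± 35.5 with N6 primers (-0.39 ± 0.09, adjusted p = 0.176).

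**Figure D2:**
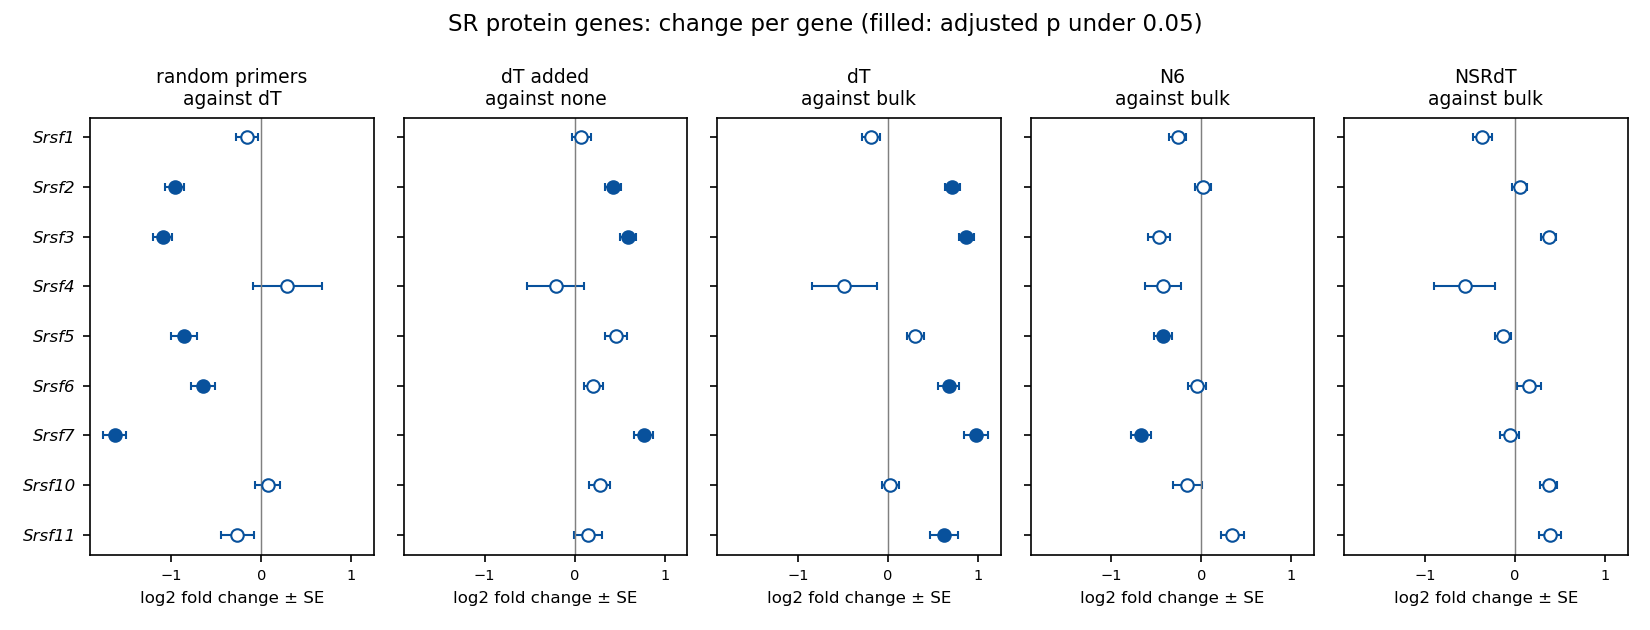
Log2 fold change per gene (x axis, with its standard error as a bar) of the 9 SR protein genes (rows) in 5 comparisons (panels), filled where the adjusted p was under 0.05. In the first panel Srsf7, at -1.63, lies farthest from 0, and in the last panel no gene is filled.

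Bulk RNA at 200 ng gives the level against which the 10 pg libraries can be set. Against bulk, dT was higher for 5 of 9 genes and lower for none, beside 6.9% of 15708 genes called higher. Library totals alone gave 617 higher and 2196 lower over all genes, beside 1084 higher and 1873 lower. Srsf7 had 316, 312 and 243 CPM in dT, against 161, 134 and 152 in bulk (0.98 ± 0.13, adjusted p = 0.00918). Srsf3 had 612, 621 and 548 CPM in dT, against 346, 304 and 332 in bulk (0.87 ± 0.09, adjusted p = 0.00275). Srsf2 had 384, 381 and 409 CPM in dT, against 252, 224 and 246 in bulk (0.71 ± 0.08, adjusted p = 0.00556). In each of these 3 genes every dT library was above every bulk library. Srsf6 was also higher (338 ± 40.1 CPM in dT and 214 ± 12.3 in bulk, 0.67 ± 0.12, adjusted p = 0.0101), as was Srsf11 (186 ± 36.8 in dT and 121 ± 1.85 in bulk, 0.62 ± 0.15, adjusted p = 0.0366). Srsf1, Srsf4, Srsf5 and Srsf10 were not called. Without bulk replicate 2 the count of calls was 3, and the adjusted p of Srsf6 and Srsf11 was 0.0527 and 0.139. Both were lost without either other bulk library too, and Srsf11 also without dT replicate 2 (0.0632). Both were lost with library totals alone (0.0583 and 0.184), and Srsf11 with no filter (0.0646) and with all 18 libraries in 1 fit (0.0564). Srsf7 was lost without bulk replicate 1 (0.0520) or 3 (0.0574) and Srsf2 without bulk replicate 3 (0.0574), while Srsf3 was called under all 11 alternatives. Calls over all genes fell in the same fits, from 1084 higher and 1873 lower to 223 and 134 without bulk replicate 1. They were 431 and 916 without replicate 2 and 180 and 119 without replicate 3, so a loss of calls was not particular to the SR genes.

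Random primers alone gave the opposite picture for Srsf7. It had 106, 92.3 and 86.05 CPM in NSR and 90.3, 94.2 and 93.6 in N6, all below the bulk libraries (-0.65 ± 0.13 with adjusted p = 0.0275 and -0.67 ± 0.11 with adjusted p = 0.0131). NSR was also below bulk for Srsf2 (167 ± 21.9 CPM in NSR and 241 ± 14.3 in bulk, -0.52 ± 0.12, adjusted p = 0.0463), while N6 was below bulk for Srsf5 (154 ± 12.9 in N6 and 209.9 ± 6.75 in bulk, -0.43 ± 0.10, adjusted p = 0.0476). That made 2 of 9 genes lower in NSR, beside 4.65% of all genes, and 2 of 9 lower in N6, beside 3.9%. No SR gene was higher than bulk in either. Without bulk replicate 2, N6 had 1 call and NSR had none (edgeR). Over all genes that omission gave 186 higher and 216 lower in N6, beside 503 and 593 with all libraries. In NSR it gave 207 and 236, beside 619 and 717. Omitting bulk replicate 1 or 3 gave 175 and 189 or 166 and 193 in N6, and 180 and 204 or 166 and 199 in NSR. The adjusted p without 1 bulk library ran over 0.0665 to 0.159 for Srsf7 in NSR, 0.136 to 0.212 for Srsf2 in NSR and 0.158 to 0.224 for Srsf5 in N6, and for Srsf7 in N6 it was 0.111 without bulk replicate 1, 0.0337 without replicate 2 and 0.114 without replicate 3. With the mixed primers edgeR called 0 of 9 genes in NSRdT, where 5.28% of all genes were called, and 0 of 9 in N6dT, where 4.79% were. This does not show equal levels. An unadjusted p under 0.05 was found for 4 of 9 genes in NSRdT, beside 2940 of all 15553 genes. In N6dT it was found for 6 of 9, beside 2859 of all 15234. DESeq2 called 4 of the 9 in each. Over all genes DESeq2 called 1057 higher and 801 lower of 15445 in NSRdT and 1032 higher and 734 lower of 15173 in N6dT. Srsf3 had 419.6 ± 27.7 CPM in NSRdT and 413 ± 47.5 in N6dT, against 327 ± 21.1 in bulk, with every library of both sets above bulk and adjusted p = 0.0552 and 0.113. Srsf10 lay above bulk in the same way at 213 ± 16.4 and 212 ± 22.9 CPM, against 166 ± 9.03 (adjusted p = 0.0729 and 0.0953). With library totals alone both genes were below bulk (-0.340 and -0.832 for Srsf3, -0.340 and -0.811 for Srsf10). That scaling gave 179 higher and 3742 lower over all genes in NSRdT, beside 419 higher and 402 lower with TMM, 129 higher and 7958 lower in N6dT, beside 411 higher and 319 lower, 180 higher and 5922 lower in NSR, beside 619 higher and 717 lower, and 142 higher and 8570 lower in N6, beside 503 higher and 593 lower. The 5 comparisons share the same bulk libraries.

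The classes of transcript were compared next. Of all estimated counts of the 9 genes, retained_intron transcripts took 23.3% ± 1.67 in NSRdT, 22.3% ± 0.980 in N6dT, 25.1% ± 2.50 in NSR, 22.6% ± 2.87 in N6, 16.96% ± 1.16 in dT and 20.7% ± 1.01 in bulk (SD, n = 3 each). Over all genes with a protein_coding transcript the same class took 3.22% ± 0.0820 in dT and 5.87% ± 0.190 in bulk. NMD transcripts took 6.09% ± 0.757, 5.600% ± 3.47, 7.58% ± 1.57, 6.96% ± 1.60, 5.87% ± 1.20 and 6.23% ± 0.542 of the SR genes' counts in the same order of groups, beside 1.82% ± 0.0240 in dT and 1.83% ± 0.0239 in bulk over all genes. Both classes held a larger share of SR gene counts than of all such genes in these groups, as a description without a test. Of the 68 SR transcripts 12 are NMD and 22 retained_intron entries, and the part of the number of entries in these shares was not tested. The genes differed widely among themselves in bulk. Srsf7 has 1 entry in the table, Srsf7-201, which is protein_coding. Srsf11 had 62.7% ± 3.29 of its counts in retained_intron transcripts, Srsf5 38.2% ± 2.17, Srsf3 32.7% ± 0.748, Srsf6 20.8% ± 0.311, Srsf4 19.7% ± 2.23, Srsf2 14.8% ± 1.31 and Srsf1 3.33% ± 1.04. NMD transcripts took 24.5% ± 0.959 of Srsf3, 9.95% ± 4.38 of Srsf6 and 7.23% ± 0.930 of Srsf4 in bulk, and under 2% of the counts of Srsf1, Srsf2, Srsf5 and Srsf11. Per transcript length the shares shift: for Srsf3 in bulk NMD transcripts then made 30.2%, and for Srsf1 in N6 the retained_intron share was 49.2%.

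**Figure D3:**
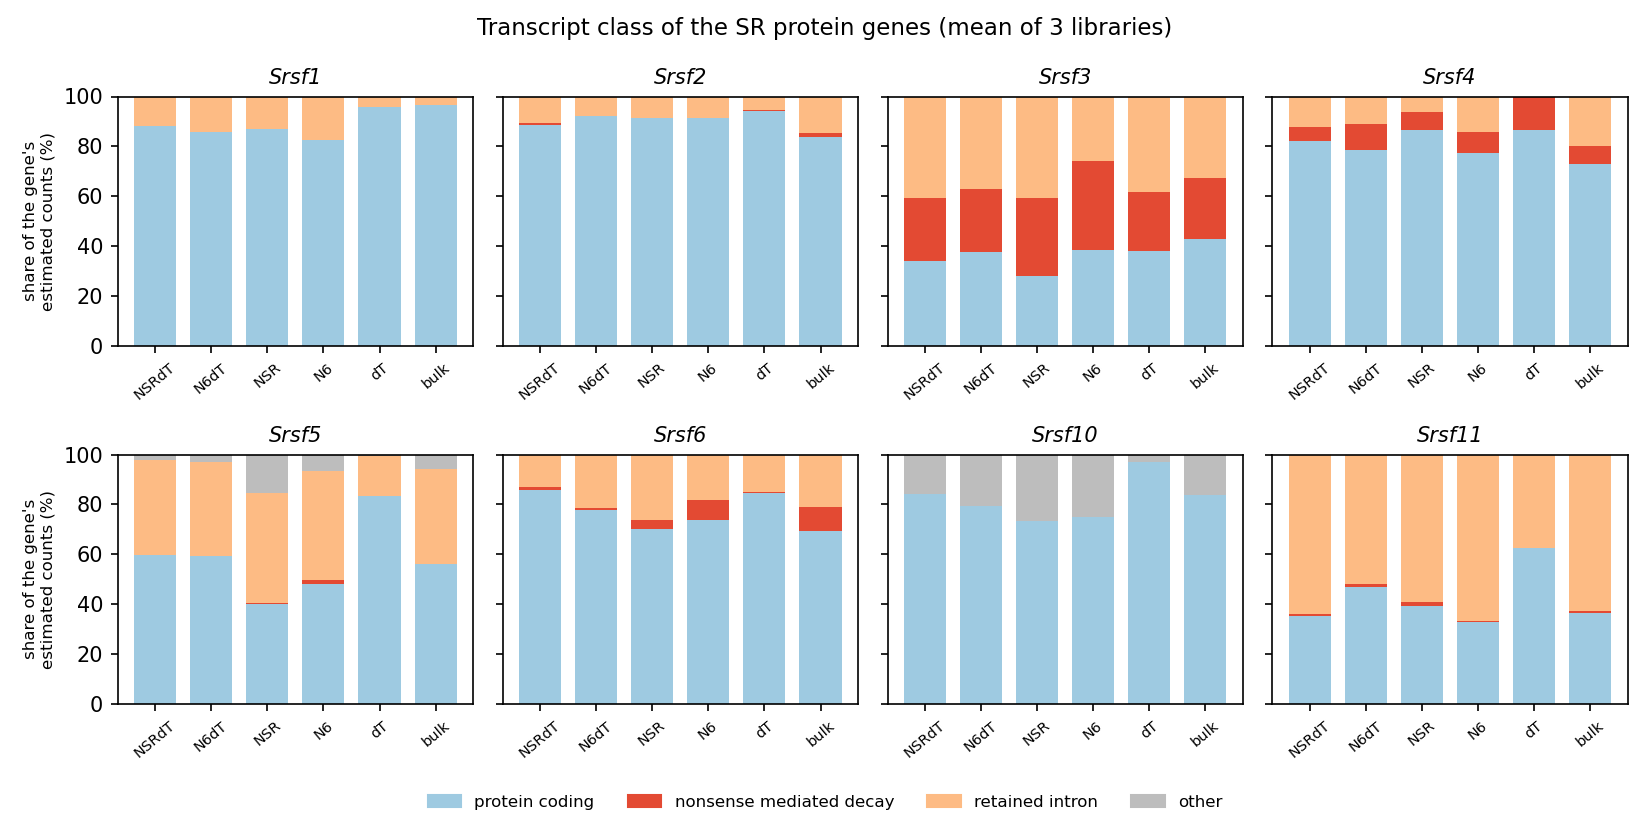
Share of each gene's estimated counts (y axis, percent, mean of 3 libraries) in protein_coding, nonsense_mediated_decay, retained_intron and other (processed_transcript) transcripts (stacked bars) by group (x axis), for the 8 genes with more than 1 class. The retained_intron part of Srsf1 is 17.4% in N6 and 3.33% in bulk, and that of Srsf4 is 0 in dT.

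The share of a class was tested against the gene's other classes (edgeR diffSpliceDGE, adjusted over all classes of all genes). Random primers against dT gave 4 classes called higher of 21 tested in 8 genes and none lower, beside 4.97% of all 12955 classes called higher. In Srsf1 the retained_intron transcripts held 12.6, 10.3 and 12.5% of its counts in NSRdT, 13.9, 16.7 and 12.1% in N6dT, 8.10, 16.3 and 14.3% in NSR, 21.5, 19.6 and 11.1% in N6, 2.63, 4.77 and 4.68% in dT and 4.51, 2.50 and 2.99% in bulk. Every library with a random primer was above every dT and every bulk library. The log2 change was 1.93 ± 0.44 for random primers against dT (adjusted p = 0.0341), and against bulk it was 1.80 ± 0.35 in NSRdT, 2.08 ± 0.33 in N6dT, 1.98 ± 0.44 in NSR and 2.37 ± 0.36 in N6 (adjusted p = 0.0232, 0.00523, 0.0255 and 0.00218). Without bulk replicate 2 the adjusted p was 0.269 in NSRdT, 0.0771 in N6dT, 0.201 in NSR and 0.0427 in N6, and the call against dT was lost under 12 of 20 alternatives, among them the omission of any 1 dT library. Limma on logit shares called none of these 5 comparisons for Srsf1 (adjusted p from 0.0634 to 0.141). Most of these counts were given to Srsf1-004, 759 nucleotides long, which had 14.3, 37.3 and 25.7 CPM in NSR and 45.02, 46.6 and 23.7 in N6, against 6.63, 8.51 and 11.9 in dT and 11.2, 2.87 and 5.34 in bulk. As a single transcript it was called in random primers against dT (1.77 ± 0.46, adjusted p = 0.0256) and in N6 against bulk (2.43 ± 0.58, adjusted p = 0.0461), and the second call was lost without any 1 bulk library (0.108 to 0.189), without N6 replicate 1 or 2, with library totals alone or with no filter. The first was lost with library totals alone, with no filter and without N6 replicate 1 or 2, NSR replicate 2 or 3, dT replicate 1 or 2 or N6dT replicate 1 or 2 (adjusted p = 0.0519 to 0.191). Srsf1-004 has no stretch of 31 nucleotides that other Srsf1 transcripts lack, so its counts rest on how shared reads were divided.

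The estimated counts of the Srsf3 isoforms differed in how they varied with the primers. Its 4 transcripts with 10% or more of its counts in some group are the coding Srsf3-001, the poison-exon transcript Srsf3-002 whose exon is printed above, and the retained_intron transcripts Srsf3-003 and Srsf3-005. Srsf3-005, 910 nucleotides in the table, held 24.9, 22.8 and 17.6% of Srsf3 counts in NSRdT, 13.7, 10.2 and 14.03% in N6dT, 9.58, 15.8 and 13.4% in NSR, 0.799, 0.00443 and 6.05% in N6, 28.8, 33.2 and 28.8% in dT and 6.92, 4.50 and 5.09% in bulk. The dT libraries were the highest and the N6 libraries lay lowest together with bulk. In CPM it averaged 24.01 ± 21.3 with random primers and 180.2 ± 24.7 with dT (-3.54 ± 0.76, adjusted p = 0.00881), and 180.2 ± 24.7 in dT against 18.2 ± 5.23 in bulk (3.21 ± 0.26, adjusted p = 0.00441). Both calls held under all alternatives run. It was also above bulk in NSRdT (2.24 ± 0.28, adjusted p = 0.0160) and N6dT (1.45 ± 0.31, adjusted p = 0.0414), though not once 1 bulk library was left out (0.0503 to 0.134 in NSRdT and 0.149 to 0.173 in N6dT). The other retained_intron transcript, Srsf3-003, 3986 nucleotides long, moved the other way between dT and bulk, with 9.46, 7.29 and 7.59% of Srsf3 in dT, against 25.7, 28.98 and 26.9% in bulk (-0.98 ± 0.17 per transcript, adjusted p = 0.00862). This call was lost without any 1 of the bulk libraries (0.05004 to 0.0523). With both in 1 class, the retained_intron share of Srsf3 was 38.4% ± 2.08 in dT and 32.7% ± 0.748 in bulk and was not called (log2 change 0.24 ± 0.18, adjusted p = 1.00).

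The poison-exon transcript Srsf3-002 held 25.8, 19.7 and 30.4% of Srsf3 counts in NSRdT, 8.02, 26.8 and 40.9% in N6dT, 41.03, 24.4 and 29.3% in NSR, 32.6, 50.6 and 24.5% in N6, 19.6, 27.3 and 23.3% in dT and 23.8, 24.1 and 25.6% in bulk. The bulk libraries lay close together, while the 3 N6dT libraries alone spanned most of the range. Its share was not called in any comparison. Its CPM was called in dT against bulk alone, at 139 ± 26.9 in dT and 80.2 ± 6.01 in bulk (0.69 ± 0.17, adjusted p = 0.0300), beside 0.58 ± 0.13 for the coding Srsf3-001 (adjusted p = 0.0211). Both were lost without any 1 bulk library (0.110 to 0.150 and 0.0691 to 0.106). Srsf3-001 was lower with random primers than with dT (90.1 ± 19.3 CPM against 226 ± 29.5, -1.36 ± 0.24, adjusted p = 0.00227), a call that held under all alternatives run. Of the 31-nucleotide stretches of Srsf3-002 in vM21, 1.17% are not shared with another transcript, beside 19.6% for Srsf3-001, 32.03% for Srsf3-003 and 0 for Srsf3-005.

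**Figure D4:**
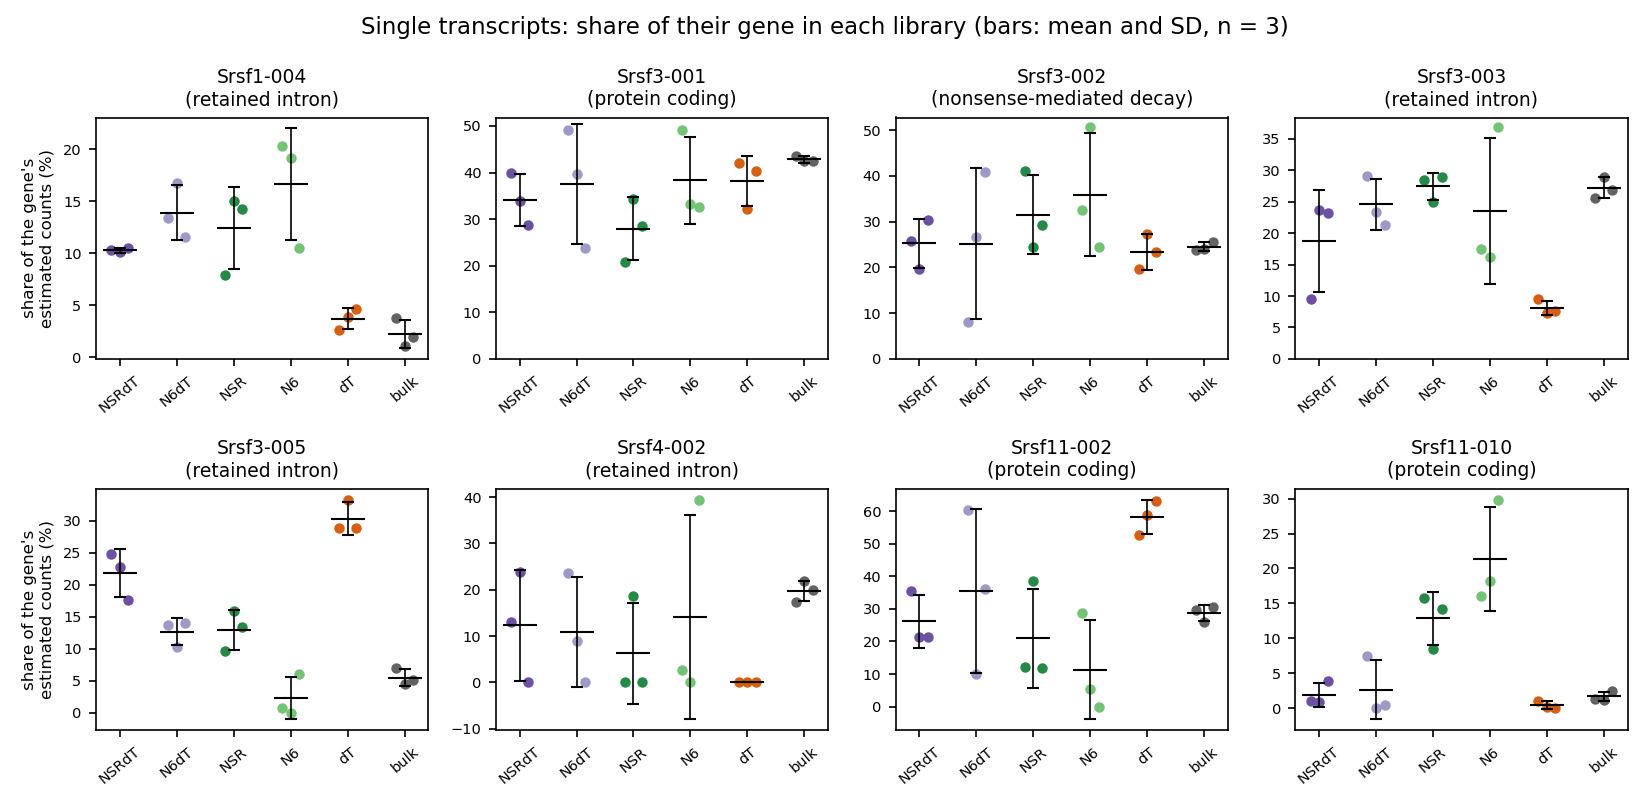
Share of the gene's estimated counts (y axis, percent) of 8 transcripts in each of 18 libraries (points) by group (x axis), with the mean and SD of 3 libraries as bars. Srsf3-005 is highest in dT, at 30.3%, and Srsf4-002 is at 0 in all 3 dT libraries.

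Srsf4 and Srsf6 also have annotated poison exons. For Srsf4, the intron-retaining Srsf4-002 had 38.8, 17.9 and 0 estimated counts in NSRdT, 58.4, 12.03 and 0 in N6dT, 0, 49.9 and 0 in NSR, 2.96, 0 and 60.1 in N6 and 0 in each dT library, against 96.2, 124 and 124 in bulk. It was present in all bulk libraries and came and went among the 10 pg libraries. Its level was at least 32.3-fold lower in dT than in bulk, with 3 counts per library as the floor (adjusted p = 0.00836 for the transcript, and 0.0571 to 0.0604 without 1 bulk library). The retained_intron share was 0 in dT, where the floor of 3 counts per library allows up to 0.865%, against 19.7% ± 2.23 in bulk (adjusted p = 0.00147, called under all 10 alternatives that gave a value). Random primers against dT was called for this share too (adjusted p = 0.0424), but 3 of the 6 random-primed libraries were at 0 like dT and 12 of 20 alternatives lost the call, among them the omission of any 1 dT library. NMD transcripts of Srsf4 held 13.3% ± 1.69 in dT and 7.23% ± 0.930 in bulk (adjusted p = 1.00). For Srsf6, the poison-exon transcript Srsf6-002 printed above had 60.97, 0 and 0 estimated counts in NSRdT, 15.96, 19.1 and 8.48 in N6dT, 0, 36.05 and 135 in NSR, 0.00458, 109 and 145 in N6 and 0, 0 and 68.3 in dT, against 240.3, 502 and 313 in bulk. Bulk replicate 2 was the highest of all. The NMD share was lower in N6dT than in bulk (0.933% ± 0.273 against 9.95% ± 4.38, -3.39 ± 0.46, adjusted p = 0.000498), and without bulk replicate 2 this was lost (adjusted p = 0.0833), as it was with limma on logit shares (0.0563). In dT the share was 0.424% ± 0.734, not called against bulk (adjusted p = 0.0509). The coding Srsf6-001 was higher in dT than in bulk (0.84 ± 0.13, adjusted p = 0.00783) and lower with random primers than with dT (-0.91 ± 0.16, adjusted p = 0.00245).

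Srsf11 had the highest share of counts in retained_intron transcripts among the 9 genes in bulk. It also has the most entries of that class, 11 of its 19 transcripts, beside at most 3 for any other of the 9 genes. The part of the number of entries in this share was not tested. Its retained_intron transcripts held 59.97, 64.1 and 68.1% in NSRdT, 30.3, 62.9 and 62.9% in N6dT, 65.8, 42.4 and 69.4% in NSR, 55.2, 74.97 and 69.5% in N6, 35.3, 41.1 and 35.7% in dT and 60.4, 66.5 and 61.3% in bulk. All dT libraries were below all bulk libraries, but the share was not called in dT against bulk (log2 change -0.75 ± 0.23, adjusted p = 0.303) or in random primers against dT (adjusted p = 0.285). The coding Srsf11-002 was higher in dT than in bulk, at 116, 112 and 92.8 CPM in dT, against 36.8, 31.03 and 36.9 in bulk (1.51 ± 0.16, adjusted p = 0.00763), and this call held under all alternatives run. The shorter coding Srsf11-010 was above bulk in NSR and N6, with 30.7, 11.03 and 20.3 CPM in NSR and 20.3, 30.4 and 49.2 in N6, against 1.71, 1.40 and 2.996 in bulk (3.17 ± 0.57 and 3.87 ± 0.51, adjusted p = 0.0285 and 0.0139). Leaving out any 1 bulk library removed both calls (0.120 to 0.129 and 0.0564 to 0.107). Srsf11-001, another coding form, was at 0 in all N6 libraries and at 9.24, 5.94 and 5.74 CPM in bulk, at least 11.7-fold lower in N6 (adjusted p = 0.0290, and 0.118 to 0.126 without 1 bulk library). Only 0.229% of the 31-nucleotide stretches of Srsf11-002 are its own. NMD transcripts of Srsf11, which hold the exon printed above or another with an early stop, were at 0 in dT, where the floor allows up to 0.114%, against 0.690, 1.23 and 0.741% of the gene in bulk (adjusted p = 0.00195). The bulk libraries held a mean of 18.04 estimated counts of this class per library.

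Srsf2 is known to splice introns in its own 3′ untranslated region, which places the normal stop upstream of a junction. Its NMD transcripts held 1.43, 1.57 and 1.12% of its counts in bulk and were at 0 in all N6 libraries, where the same floor allows up to 0.248% (adjusted p = 0.00245, called under all 10 alternatives that gave a value). In NSRdT they held 0, 2.54 and 0%, and in N6dT 0.127, 0 and 0%. In NSR they held 0, 0.111 and 0.0918%, and in dT 0, 1.82 and 0%. Each of these sets had 1 or 2 libraries with none. The NMD transcripts Srsf2-002 and Srsf2-003 have no stretch, of the length used above, that other transcripts lack. Other genes share 41.4% and 71.2% of their stretches. Srsf2-002 also has the same values in every library as the protein_coding Srsf2-201. The counts of the NMD class, including its call in N6, therefore rest on how shared reads were divided. As a single transcript Srsf2-003 was at 0 in every N6dT, NSR and N6 library, at least 6.04-fold, 6.99-fold and 5.20-fold lower than bulk (adjusted p = 0.0396, 0.0285 and 0.0290). The retained_intron transcript Srsf2-004 was below bulk in NSR (14.7 ± 5.53 CPM against 35.5 ± 0.968, -1.43 ± 0.34, adjusted p = 0.0469) and in N6 (20.8 ± 3.42 against 35.5 ± 0.968, -0.91 ± 0.21, adjusted p = 0.0401). The single-transcript calls of Srsf2-003 and Srsf2-004 in these comparisons were lost without any 1 bulk library (0.146 to 0.153, 0.124 to 0.129 and 0.121 to 0.126 for Srsf2-003, 0.152 to 0.160 and 0.148 to 0.159 for Srsf2-004). The coding Srsf2-001, with 83.8% of the gene in bulk, was higher in dT than in bulk (0.76 ± 0.10, adjusted p = 0.00763) and lower with random primers than with dT (-1.04 ± 0.12, adjusted p = 3.34e-05).

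Srsf10 and Srsf5 carried the other class calls in random primers against dT, both for transcripts with the biotype processed_transcript. For Srsf10 these held 17.4, 29.4 and 32.7% of the gene in NSR and 15.3, 30.9 and 28.8% in N6, against 0.899, 7.60 and 0% in dT (3.07 ± 0.76, adjusted p = 0.0117). They held 16.6, 16.3 and 15.2% in bulk, above every dT library. The call was lost without dT replicate 1 (0.0814). Srsf10-005 took 19.2% of the gene in NSR and 19.7% in N6, against 2.51% in dT, and Srsf10-009 was at 0 in every dT library, at least 16.8-fold higher with random primers (adjusted p = 0.00956) and at least 6.31-fold lower in dT than in bulk (adjusted p = 0.00783). Srsf10-007 was likewise at 0 in dT, at least 33.9-fold below bulk (adjusted p = 0.00822, and 0.0571 to 0.0594 without 1 bulk library). For Srsf5 this biotype held 24.2, 8.07 and 13.5% in NSR and 2.09, 13.8 and 4.06% in N6, against 1.12, 0 and 0% in dT (4.73 ± 1.36, adjusted p = 0.0287), a call lost without N6 replicate 2 (0.0805), NSR replicate 1 (0.0744) or dT replicate 3 (0.113). Its retained_intron share was 30.3, 48.8 and 53.4% in NSR and 43.2, 39.4 and 48.8% in N6, against 28.1, 2.58 and 18.3% in dT and 37.8, 40.6 and 36.3% in bulk, and was not called (adjusted p = 0.0820 against dT). The dT libraries of Srsf5 spread widely in this class, with replicate 2 the lowest.

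The coding isoforms of Srsf5 could not be told apart with confidence. Srsf5-009 was at 0 in bulk and at 51.6, 65.4 and 45.7 CPM in dT, at least 304-fold higher in dT (adjusted p = 0.00530), while Srsf5-003 had 0.0194, 0.00975 and 0.000987 CPM in dT, against 23.8, 26.8 and 25.4 in bulk (adjusted p = 0.00763). Both transcripts, and Srsf5-001, have no 31-nucleotide stretch of their own, and their lengths are 1489, 1498 and 1491 nucleotides. The summed protein_coding share of Srsf5 was 83.3% ± 13.4 in dT and 56.1% ± 1.59 in bulk and was not called (adjusted p = 0.889). The coding Srsf10-001, Srsf10-002 and Srsf10-003 averaged 31.7, 31.05 and 29.99% of the gene in dT, against 38.9, 33.5 and 9.05% in bulk, and none was called in a comparison. In the single dT libraries Srsf10-001 held 64.6, 3.02 and 27.5% and Srsf10-003 6.68, 56.8 and 26.5%. Both lack a 31-nucleotide stretch of their own, so their values rest on how shared reads were divided. Other transcripts with 10% or more of a gene in some group and no call were the retained_intron Srsf6-004 (13.1 to 26.2% over the 6 groups), Srsf11-004 (8.42 to 27.6%), Srsf11-005 (16.04 to 27.2%), Srsf5-007 (5.43 to 27.6%) and Srsf5-012 (1.79 to 11.03%), the NMD transcript Srsf4-004 (2.83 to 10.7%) and the coding Srsf5-004 (3.51 to 11.5%). Srsf4-001, the main coding form of its gene, held 73.03 to 86.7%. In addition, Srsf2-002 and Srsf2-201 have equal values in every library. Of the 68 transcripts, 19 have no 31-nucleotide stretch of their own in vM21, so values of single isoforms are uncertain. Values per gene can be affected too, since sequence is also shared with other genes. The shared part of the stretches was 23.1% for Srsf2, 19.3% for Srsf3, 14.2% for Srsf5 and 10.4% for Srsf10. It was 3.80% for Srsf7, 1.22% for Srsf1, 0.873% for Srsf11 and 0 for Srsf6, and its part in the gene values was not tested. Gm12992, on the strand opposite Srsf4, shares 40.96% of the stretches of Srsf4 and had at most 18.7% as many counts as Srsf4 in a library. Copies such as Gm12355 (Srsf3), Gm12966 (Srsf5), Gm18821 (Srsf7) and Gm5446 (Srsf10) had at most 1.54%, 5.64%, 2.57% and 9.26%. Akap13 shares 0.780% of the stretches of Srsf5 and had at most 70.5% as many counts, and Dpm1 shares 0.287% of those of Srsf11 and had at most 31.7%. Srsf2 overlaps Mettl23 on the opposite strand and shares stretches with Mfsd11, which had at most 10.4% and 14.1%. Whether counting used strand is not given in the sources used here.

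In all, random primers against dT called 9 of 50 transcripts (2 higher and 7 lower), beside 8.44% of all transcripts. Against bulk, NSRdT called 1 of 47 transcripts (1 higher and 0 lower), beside 8.12% of all transcripts. N6dT called 4 of 46 transcripts (1 higher and 3 lower), beside 7.94% of all transcripts. NSR called 10 of 46 transcripts (2 higher and 8 lower), beside 11.2% of all transcripts, N6 called 6 of 45 transcripts (2 higher and 4 lower), beside 11.4% of all transcripts, and dT called 15 of 46 transcripts (8 higher and 7 lower), beside 27.3% of all transcripts. Library totals alone moved the split over all transcripts to 1447 higher and 3661 lower for random primers against dT, beside 1789 higher and 1264 lower with TMM, and against bulk to 431 higher and 3593 lower in NSRdT, beside 688 higher and 1905 lower, 347 higher and 6768 lower in N6dT, beside 620 higher and 1812 lower, 632 higher and 5473 lower in NSR, beside 1025 higher and 2548 lower, and 473 higher and 7969 lower in N6, beside 893 higher and 2608 lower. Without bulk replicate 2, 7 SR transcripts were called in dT, 1 in N6 and 0 in NSRdT, N6dT and NSR (edgeR). Over all transcripts that omission gave 651 higher and 3399 lower in dT, beside 1647 and 7128 with all libraries. It gave 199 and 216 in N6, 198 and 201 in NSR, 142 and 126 in N6dT and 123 and 110 in NSRdT. Omitting bulk replicate 1 or 3 also lowered the calls over all transcripts, so these losses were not particular to the SR genes. The calls not yet given follow. Srsf1-001, the longest Srsf1 transcript, was lower with random primers than with dT (-0.86 ± 0.25, adjusted p = 0.0460), a call lost with DESeq2 size factors, with no filter and in 14 of the 15 fits that left out 1 library (adjusted p = 0.0520 to 0.197). Srsf1-003 was lower than bulk in N6dT, NSR and dT (-0.51 ± 0.10, -0.97 ± 0.13 and -0.86 ± 0.24), and each of these calls was lost without any 1 bulk library (0.146 to 0.153, 0.0645 to 0.0917 and 0.0992 to 0.129). The call in N6dT was also lost with DESeq2 size factors, with no filter and without any 1 N6dT library, and that in dT without dT replicate 1 or 2. NSR was also below bulk for Srsf3-001 (-0.79 ± 0.19), Srsf5-005 (-1.80 ± 0.37), Srsf5-201 (-1.81 ± 0.29) and Srsf2-001 (-0.57 ± 0.12), and above it for Srsf5-006 (2.75 ± 0.58), which was at 0 in dT and at least 8.39-fold lower there than in bulk. These 5 calls in NSR were lost without any 1 bulk library (adjusted p = 0.0979 to 0.162), and that of Srsf5-006 in dT without bulk replicate 1 or 2 (0.0524 and 0.0534). Srsf5-009 was lower with random primers than with dT (-7.52 ± 1.94), a call lost without any 1 N6 or dT library or without NSR replicate 3 (adjusted p = 0.0519 to 0.0695). Srsf6-002 was below bulk in N6dT (-3.18 ± 0.51), though not without any 1 bulk library (0.120 to 0.153), without N6dT replicate 1 or 2 or with no filter. Srsf7-201 was called in 4 of the 6 comparisons run per transcript (-1.66 ± 0.15 for random primers against dT, and -0.81 ± 0.14, -0.83 ± 0.12 and 0.86 ± 0.14 against bulk in NSR, N6 and dT). The call in NSR was lost without any 1 bulk library (0.0791 to 0.129), that in N6 without bulk replicate 1 or 3 and that in dT without bulk replicate 2 or 3. By class, edgeR called 2 SR classes lower in dT than in bulk (those of Srsf4 and Srsf11 above) of 22, beside 9.23% of all classes. It called 2 of 22 in N6, beside 2.95%, 1 of 22 higher in NSR, beside 1.6%, 2 of 22 in N6dT, beside 1.57%, and 1 of 22 higher in NSRdT, beside 0.781%. Adding dT called 0 of 21 classes, beside 0.517%, with 2 at an unadjusted p under 0.05, beside 756 of all 12955 classes. NSR against N6 called 0 of 21, beside 0%, with 0 at an unadjusted p under 0.05, beside 465 of all 12955. Limma on logit shares also called 0 and 0 in these 2 comparisons, beside 13 higher and 20 lower of all classes with dT added and 0 in NSR against N6.

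The genes that work with SR proteins were counted from lists by role, in random primers against dT, where 9.53% of all genes were called higher and 7.54% lower. Of the 2 other SR genes in the lists, Srsf9 was lower (-1.84 ± 0.43) and Srsf12 did not pass the filter on low counts. The early spliceosome (proteins of the U1 and U2 particles, U2AF and branch point factors) had 2 higher and 14 lower of 28 gene identifiers (27 listed symbols, 1 of them under 2 identifiers), with a median log2 fold change of -0.999. Among them were Snrpe at -2.55 ± 0.23 and Snrpd2 at -2.10 ± 0.18, proteins of the Sm ring that surrounds each small nuclear RNA, while the branch point binding protein gene Sf1 had -0.04 ± 0.16 and was not called. The hnRNP proteins, which often oppose SR proteins, had 5 higher and 10 lower of 26, with Pcbp1 at -1.45 ± 0.16, Hnrnpa2b1 at -0.56 ± 0.08, Hnrnpk at -0.42 ± 0.10 and Raly at 2.31 ± 0.27. SR-related proteins had 7 higher and 3 lower of 24: Srrm2, a scaffold of nuclear speckles, was at 2.87 ± 0.12, Luc7l2 at 2.35 ± 0.27 and Tra2b at -0.51 ± 0.15, and Tra2a was not called at 0.41 ± 0.19. The kinases that phosphorylate SR proteins had 2 higher and 0 lower of 9, with Clk1 at 0.26 ± 0.26 and Srpk1 at 0.60 ± 0.21, both not called, Dyrk1a at 0.97 ± 0.27, called, and Srpk3 with a mean of 4.05 CPM with random primers and 0 in all dT libraries, also called, while Tnpo3, which carries SR proteins into the nucleus, was not called (0.25 ± 0.22). NMD and exon junction complex genes had 4 higher and 3 lower of 17, with Eif4a3 at -1.02 ± 0.21, Magoh at -1.31 ± 0.27 and Smg1 at 1.46 ± 0.28. The median over all genes was 0.12. With dT added to random primers, where 1.8% of all genes were called higher and 0.376% lower, 4 of the 28 early spliceosome identifiers, Snrpe (1.44 ± 0.20) and Snrpd2 (0.99 ± 0.16) among them, and 4 of the 26 hnRNP genes, Pcbp1 (0.76 ± 0.14) among them, were higher, and of the 17 NMD and exon junction genes 1 was lower, Upf1.

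Over the 18 libraries, the genes whose log2(CPM + 1) tracked each SR gene most closely were sought among 7574 other genes with a mean of 10 CPM or more. The highest Pearson correlations were those of Srsf7 with Gnb2l1 (r = 0.979) and Rps3a3 (r = 0.971). Srsf5 was nearest to Ppp1r14b (r = 0.946) and Rps18 (r = 0.932), Srsf3 to Skp1a (r = 0.945) and Rpl37 (r = 0.945), Srsf2 to Rpl22 (r = 0.925) and Sumo2 (r = 0.924) and Srsf6 to Klf4 (r = 0.899) and Psmc6 (r = 0.887). The 4 genes not called between random primers and dT had weaker matches: Srsf10 with Grsf1 (r = 0.800) and Lnp (r = 0.758), Srsf1 with Ewsr1 (r = 0.762) and 2310036O22Rik (r = 0.755), Srsf11 with Chek1 (r = 0.740) and Yipf5 (r = 0.725) and Srsf4 with Phf20l1 (r = 0.726) and Ephb4 (r = 0.718). These are descriptions of the same 18 libraries in 6 groups, which share group, depth and rRNA content. The libraries behind the calls are among them, and a gene that differs little between groups has less variation to match. The weaker matches of the 4 genes are therefore not a separate result.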

How the data were processed

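The deposited table holds estimated counts per transcript entry for 18 libraries, with names, lengths and biotypes of GENCODE transcripts in its row names, per the file headers. The build mm10 and bcl2fastq 2.16.0.10 are given per the submitters' processing notes; for the aligner, the quantifier and strand the record is: not given in the sources used here. Estimated counts, as the authors deposited them, were summed per gene identifier (47643) or per gene and biotype class, and rounded. The 92 spike-in entries were left out of library sizes and tests. The design text counts fewer RT-RamDA samples than the 15 listed; all 15 were used.

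Differences were tested with edgeR 4.0.16 (R 4.3.3; TMM scaling, filterByExpr, quasi-likelihood F test, two-sided, Benjamini-Hochberg adjustment over all features tested, called at an adjusted p under 0.05), and class shares with its diffSpliceDGE. Every adjusted p in the text is from edgeR unless another tool is named. The 15 RT-RamDA libraries were fitted together, and each primer set was fitted with bulk on its own. Values after ± beside a log2 fold change are standard errors, and others are SDs of 3 libraries, or of 6 where 2 primer sets are pooled. CPM in the text are scaled over all 18 libraries, whereas each fit scales its own libraries at its own level, so a fold change can differ from the ratio of CPM. A group at 0 was given the floor of 3 counts per library; floors cover counting error only. Alternatives were DESeq2 1.42.0 (Wald test, size factors), limma 3.58.1, library totals alone, no filter, a mean count of 10, a replicate block, all 18 libraries in 1 fit, shares per transcript length, TPM without rRNA and mitochondrial genes or by the length of the main transcript, and the omission of each library. The difference of the changes with dT between NSR and N6 was chosen after seeing the data. The fits were also run on simulated data with known changes in features with many counts. That simulation had less spread than the real class and transcript fits. It therefore cannot show how these tests do for classes and transcripts with few counts. Python 3.11.15, numpy 2.4.6, pandas 2.3.3, scipy 1.17.1 and matplotlib 3.10.9 were used.

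All 9 members are named; of their transcripts, each member's most abundant coding one, those with 10% or more of the gene in a group, and those called. From each list of partner genes 2 genes by abundance (highest mean TPM) and 2 by p (smallest, random primers against dT) were eligible, and Upf1 was named after its values were seen; marker lists are given by their sums. The value of 1 eligible gene is not reported here. The members and lists were chosen with earlier results of these data known. Transcript structure and sequence are from GENCODE vM21 (GRCm38, the same build as mm10).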

Additional observations from a re-analysis of the deposited data

How the results depend on the processing

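The 5 genes lower with random primers than with dT kept that call under all 20 alternatives, as did Srsf7 and Srsf3 with dT added. Library totals alone, in place of TMM, moved most other counts of the 9 genes called: 8 in random primers against dT, 3 in NSR against N6, 6 with dT added, 4 in NSRdT against NSR and, against bulk, 8 in NSRdT, 9 in N6dT, 9 in NSR and 9 in N6. It reversed 19 log2 fold changes: -0.862 for Srsf10 in random primers against dT, 0.403 for Srsf6 in NSR against N6, -0.340, -0.340, -0.563 and -0.663 for Srsf3, Srsf10, Srsf6 and Srsf2 in NSRdT, -0.832, -0.811, -0.871, -0.882, -0.902 and -0.553 for Srsf3, Srsf10, Srsf6, Srsf2, Srsf7 and Srsf11 in N6dT, -1.004, -0.668, -0.914, -0.998 and -0.648 for Srsf3, Srsf10, Srsf6, Srsf4 and Srsf11 in NSR, and -1.350 and -1.021 for Srsf2 and Srsf11 in N6, all against bulk. With size factors or with no filter, 0 genes were called in NSRdT against NSR, and 1 in NSR and 1 in N6 against bulk. Over all genes, size factors gave 152 higher and 32 lower in NSRdT against NSR. Against bulk they gave 678 and 671 in NSR and 552 and 551 in N6. With no filter these were 166 and 81, 277 and 391, and 227 and 380 in the same order. The DESeq2 Wald test called 1 in NSR against N6, 2 in NSRdT against NSR and 4, 4, 4 and 4 in NSRdT, N6dT, NSR and N6 against bulk. Over all genes it called 300 higher and 112 lower in NSRdT against NSR. Against bulk it called 1274 higher and 1050 lower in NSR and 1116 higher and 958 lower in N6. Of the classes, library totals alone called 2 in NSR, the mean count of 10 called 1 in dT, and limma called 0, 0 and 1 in NSRdT, N6dT and N6 against bulk. Over all classes library totals alone gave 166 higher and 165 lower in NSR, and the mean count of 10 gave 150 and 740 in dT. Limma gave 125 and 177 in NSRdT, 80 and 143 in N6dT and 213 and 299 in N6. Of the transcripts, library totals alone called 9, 14 and 21 in NSRdT, N6dT and N6 against bulk, and with no filter 14 were called in random primers against dT and 0, 3 and 2 in N6dT, NSR and N6 against bulk. Over all transcripts, no filter gave 2516 higher and 1794 lower of 83285 in random primers against dT. Against bulk it gave 174 and 293 in N6dT, 282 and 572 in NSR and 231 and 497 in N6. The cause of these moves was not tested.

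Leaving out 1 library gave these ranges of calls per gene: 5 to 5 in random primers against dT, 0 to 0 in NSR against N6, 2 to 4 with dT added, 2 to 2 in N6dT against N6, 0 to 0 in NSRdT against NSR and, against bulk, 0 to 1 in NSRdT, 0 to 1 in N6dT, 0 to 4 in NSR, 0 to 3 in N6 and 1 to 6 in dT. For classes they were 2 to 3, 0 to 0 and 0 to 0 in the first 3 of these, and 0 to 2, 0 to 3, 0 to 4, 2 to 3 and 2 to 5 against bulk in that order. For transcripts they were 6 to 9 in random primers against dT, and 0 to 3, 0 to 3, 0 to 13, 0 to 12 and 7 to 23 against bulk. Leaving out a library of the primer set raised the calls per gene against bulk over the whole table. Without dT replicate 1, dT had 1605 higher and 3425 lower, beside 1084 and 1873. Without N6 replicate 1, N6 had 875 and 1213, beside 503 and 593. Transcripts went both ways: without dT replicate 1, dT had 2386 and 11734, beside 1647 and 7128. Without N6dT replicate 1, N6dT had 349 and 833, beside 620 and 1812. Leaving out a bulk library lowered the calls against bulk over the whole table. Over all classes, without bulk replicate 2, NSRdT had 36 higher and 19 lower, beside 91 and 156 with all libraries. N6dT had 27 and 15, beside 67 and 108, and NSR had 90 and 33, beside 186 and 170. N6 had 89 and 41, beside 163 and 172, and dT had 81 and 612, beside 143 and 1082.

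The replicate numbers did not pair the libraries: same-numbered RT-RamDA libraries correlated at -0.0587 to 0.0577 in their deviations over 3322 genes. With the replicate block, 0 SR genes were called in NSRdT against NSR, beside 148 higher and 32 lower over all genes. The block gave 1243 higher and 1052 lower over all genes in random primers against dT. It also ended the call of the Srsf4 retained_intron share between random primers and dT (adjusted p = 0.0601), and of the other values recomputed that way it changed no call. Single values named in the text were the same in direction and call in 1795 recomputations, lost their call in 255, gained one in 57 and moved by more than 1 SD in 106. With 3 libraries of 10 pg in a group, transcripts with few counts could be at 0 in some libraries of a group and not in others, which limits the class and isoform values.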
